A study of Homo sapiens with 12 samples.

Results

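HR, the hairless corepressor, and the nuclear receptors VDR, THRA, THRB and RORA that its protein is known to bind were followed at the mRNA level in human neuroblastoma lines. These 5 genes were taken by their Ensembl identifiers from a table of 61552 genes. HR was chosen by its lower counts with ML210 under both line labels, and the receptors as its partners. The ML210 comparisons of HR are therefore described without a test. The series kept the neuroblastoma lines SK-N-BE(2), described as MYCN-amplified, and SK-N-AS, described as MYCN-nonamplified, overnight with ML210 or as controls, to see how lines of either MYCN status take the loss of GPX4 activity. ML210 blocks GPX4, a selenium-containing enzyme that clears lipid peroxides, and cells short of this activity may die by ferroptosis, which needs iron. The 4 groups were labelled SK-N-BE(2) with ML210, SK-N-BE(2) control, SK-N-AS with ML210 and SK-N-AS control. All 4 groups carry the genotype label WT, and each MYCN status has a single line, so effects of the status and of the line cannot be told apart. Each group held 3 libraries, 1 from each of batches 1, 2 and 3, and nothing beyond the batch label says that they were separate cultures. The p-values therefore measure the spread between these libraries. The sources used here give neither the dose of ML210 nor the vehicle of the controls.

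Hairless is a nuclear protein with a JmjC domain that binds DNA poorly by itself and is brought to genes by nuclear receptors. It represses genes together with histone deacetylases, and loss of the gene in people and mice leaves the hair follicle unable to enter new growth cycles. VDR is the receptor for active vitamin D, THRA and THRB encode the receptors for thyroid hormone, and all of them usually bind DNA with a retinoid X receptor. RORA binds DNA as a monomer, drives clock genes such as BMAL1, and is held in check by hairless. In the rat brain the hairless gene is itself switched on by thyroid hormone, as is KLF9, which encodes a transcription factor.

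Depth and identity of the libraries bear on every value. The libraries held 54047293 to 83481963 counted reads, so that 3 reads, taken as the floor of detection, equalled 0.039 to 0.059 CPM, that is, counts scaled to a common library size. That floor covers counting error only, whereas the 95% intervals come from the fit and include the spread between libraries. MYCN went against the labels, with 0.154 ± 0.0899 CPM in ML210 and 0.166 ± 0.0727 CPM in control libraries labelled SK-N-BE(2), against 3855 ± 115 CPM in ML210 and 3558 ± 122 CPM in control libraries labelled SK-N-AS (SD, n = 3 each). Lines are therefore named by label throughout, and a direction between lines holds for the labels only. Of 12 sympathoadrenal markers of neuroblastoma, 11 exceeded 1 CPM on average in the groups labelled SK-N-BE(2) and 12 in those labelled SK-N-AS. Their summed level was 1286 to 1821 CPM with ML210 and 1543 to 1962 CPM in controls labelled SK-N-BE(2), and 8867 to 9157 CPM with ML210 and 9657 to 10120 CPM in controls labelled SK-N-AS. The 8 fibroblast markers summed to 3173 to 4090 CPM with ML210 and 3300 to 4321 CPM in controls labelled SK-N-BE(2), and to 443 to 576.1 CPM with ML210 and 509.4 to 670.3 CPM in controls labelled SK-N-AS. COL1A1 and COL3A1 made up most of the sum labelled SK-N-BE(2), and THY1 most of that labelled SK-N-AS. Between controls 6 markers were higher labelled SK-N-BE(2), and COL1A2 stayed under 1 CPM. THY1 went the other way, at 131.8, 114.9 and 108.4 CPM against 411, 426.2 and 432.3 CPM labelled SK-N-AS. The sum thus does not describe these markers as a set. Genes of the other label left traces in batches 2 and 3 labelled SK-N-AS. Of 42 genes that were at least 50 CPM in libraries labelled SK-N-BE(2) and at most 3% of that in those labelled SK-N-AS, the median trace was 1.19% to 1.77% in those 4 libraries and 0.346% to 0.362% in batch 1. In the opposite direction 69 such genes had median traces of 0.256% to 0.525%.

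Promoter windows of the paired thyroid hormone receptor genes are shown because THRA was the member with the highest level under both labels and THRB the member that differed most between them. RefSeq windows on GRCh38.p14, 250 bases before and 50 from the start, were found for 3 of the 5 members, namely THRA, THRB with 2 windows, and RORA. The THRA window is chr17:40062715-40063014 on the plus strand, in which 3 annotated transcripts of the gene start, and the THRB window is chr3:24494801-24495100 on the minus strand, in which 9 start. In the THRB window not shown 1 starts. No annotated transcript starts in the RORA window, which lies 601539 bases into the gene from its 5′ end. Capitals mark matches on either strand to the GC box GGGCGG and to TGACNNNGC, the core of the antioxidant response element.
THRA: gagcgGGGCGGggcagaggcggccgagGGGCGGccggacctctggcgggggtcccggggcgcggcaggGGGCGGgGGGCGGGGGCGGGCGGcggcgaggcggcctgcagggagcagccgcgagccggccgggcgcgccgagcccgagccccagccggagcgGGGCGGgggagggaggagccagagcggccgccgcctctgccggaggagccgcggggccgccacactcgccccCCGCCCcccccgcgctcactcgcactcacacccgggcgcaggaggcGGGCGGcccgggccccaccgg
THRB: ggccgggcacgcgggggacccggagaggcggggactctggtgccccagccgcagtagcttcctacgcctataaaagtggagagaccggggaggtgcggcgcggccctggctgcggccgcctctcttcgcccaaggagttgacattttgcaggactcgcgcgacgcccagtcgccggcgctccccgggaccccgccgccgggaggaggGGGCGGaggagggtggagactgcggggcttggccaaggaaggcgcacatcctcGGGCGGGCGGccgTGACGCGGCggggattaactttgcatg
The THRA window held 9 GC boxes at 86.3% G and C, and the THRB window 3 GC boxes and 1 TGACNNNGC at 72%, some of them overlapping. GGGCGG occurred in 45% and TGACNNNGC in 13.3% of all 35116 promoter windows of this length. The hexamer AGGTCA that these receptors bind, present in 13.8% of windows, was in none of the 4 windows of the members. Neither were its direct repeats with 3 or 4 bases between, known as DR3 and DR4, found in 0.0057% and 0.0199% of windows, nor the E-box CACGTG of the clock proteins, found in 7.26%. These are matches of letters, and nothing on binding was measured.

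HR, the corepressor, was lower with ML210 in each library than in each control of the same label. HR was at 6.41, 5.72 and 6.40 CPM in ML210 libraries 1, 2 and 3 labelled SK-N-BE(2), against 14.2, 12.1 and 9.41 CPM in the controls 1, 2 and 3. It was at 16.96, 20.3 and 22.2 CPM in ML210 libraries labelled SK-N-AS, against 35.65, 43.6 and 40.65 CPM in the controls. The groups of a label did not overlap, and the ML210 libraries labelled SK-N-AS still stood above the controls labelled SK-N-BE(2). The means were 6.18 ± 0.395 and 11.9 ± 2.40 CPM for ML210 and control labelled SK-N-BE(2), and 19.8 ± 2.65 and 39.98 ± 4.03 CPM for ML210 and control labelled SK-N-AS (SD, n = 3 each).

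In same-batch pairs HR with ML210 was 45.1%, 47.3% and 68% of control labelled SK-N-BE(2), and 47.6%, 46.5% and 54.6% of control labelled SK-N-AS. The pair of batch 3 had the highest percentage under both labels. The fitted log2 differences were -0.94 labelled SK-N-BE(2) and -1.01 labelled SK-N-AS, folds of 0.52 and 0.496. The difference between these responses was 0.07 on the log2 scale, and leaving out a library moved it between -0.12 and 0.19. Among 10400 protein-coding genes averaging 2 or more on the log2 CPM scale, there were 10 with a lower difference than HR labelled SK-N-BE(2) and 3 labelled SK-N-AS. For scale, 0.557% of 20304 tested genes fell with ML210 labelled SK-N-BE(2), 0.00493% labelled SK-N-AS and 0.532% for the mean of both labels. HR was picked for this contrast, so nothing is read from its place in it. In such bulk libraries, fewer cells that carry a transcript and less of it per cell cannot be told apart.

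**Figure D1:**
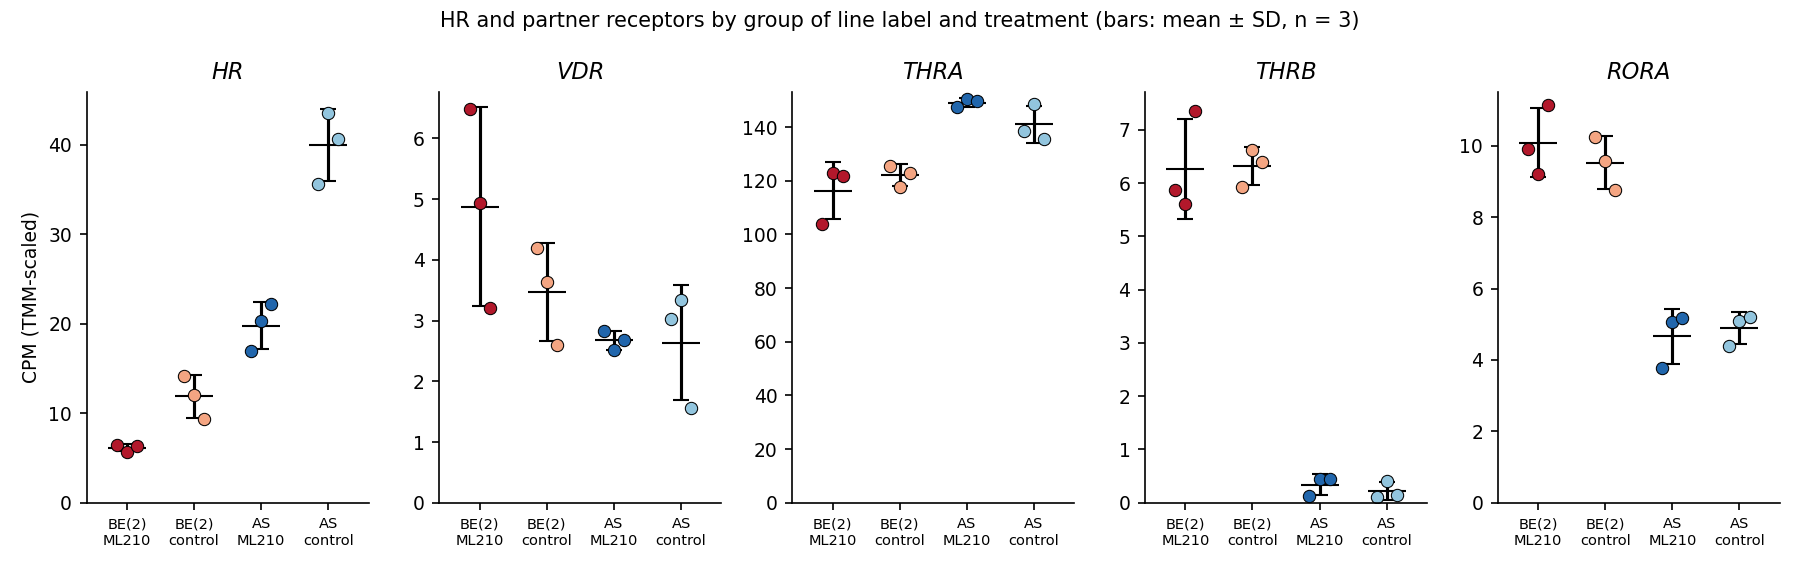
CPM of HR and its partner receptors in each library (points), with the mean and SD of each group of 3 (bars), by line label and treatment; each panel has its own linear axis from 0. The ML210 points of HR lie below the controls of their label, the THRB and RORA points labelled SK-N-BE(2) lie above those labelled SK-N-AS, and for the 4 receptors the ML210 and control points of a label overlap.

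The 5 genes sit at separate loci on GRCh38, in the annotation of GENCODE release 29. HR lies on chromosome 8 from 22114415 to 22133384 on the minus strand and has 8.784 kb of exon. VDR lies on chromosome 12 from 47841537 to 47943048 on the minus strand, and RORA on chromosome 15 from 60488284 to 61229319 on the minus strand. THRA lies on chromosome 17 from 40058290 to 40093867 on the plus strand. Its 3′ exons share 263 bases, 3.78% of its exon length, with those of NR1D1 on the opposite strand. THRB lies on chromosome 3 from 24117153 to 24495756 on the minus strand. The sources used here do not say whether the counting used strand, so reads in such shared bases cannot be told apart.

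None of the 4 receptors changed with ML210 by the edgeR quasi-likelihood test with Benjamini-Hochberg adjustment over all tested genes. This was 0 of 4 labelled SK-N-BE(2), where 1.37% of all tested genes were called, and 0 of 4 labelled SK-N-AS, where 0.0296% were. It was also 0 of 4 for the mean of both labels, where 1.23% were called, and 0 of 4 for the difference of the responses, where 0.00493% were. None of these tests had an unadjusted p under 0.05 for a receptor, and DESeq2 and limma voom called none either. With shares this low among all genes, no call is the usual outcome, and the intervals below say what the libraries could show.

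VDR, the vitamin D receptor, was scarce and variable. It was at 6.48, 4.93 and 3.21 CPM in ML210 libraries 1, 2 and 3 labelled SK-N-BE(2), against 4.19, 3.64 and 2.60 CPM in controls. In libraries labelled SK-N-AS it was at 2.83, 2.51 and 2.68 CPM with ML210, against 3.02, 3.33 and 1.56 CPM in controls. The ML210 and control libraries overlapped under both labels, although each same-batch pair labelled SK-N-BE(2) was higher with ML210, at 155%, 135% and 124% of control. The pairs labelled SK-N-AS were at 93.9%, 75.3% and 171% of control. The log2 difference was 0.49 labelled SK-N-BE(2), with a 95% interval of -0.14 to 1.12 (edgeR adjusted p = 0.531), and 0.02 labelled SK-N-AS, with an interval of -0.63 to 0.66 (adjusted p = 1). The responses differed by 0.47 (adjusted p = 0.864).

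THRA, the gene of thyroid hormone receptor alpha, was the most abundant member per kb. THRA was at 104, 123 and 121.9 CPM with ML210 labelled SK-N-BE(2), against 125.6, 117.8 and 123 CPM in controls. It was at 147.4, 150.5 and 149.6 CPM in the ML210 libraries labelled SK-N-AS, against 138.7, 148.6 and 135.7 CPM in controls. The groups overlapped under both labels. The log2 difference was -0.07 labelled SK-N-BE(2) (95% interval -0.21 to 0.07, edgeR adjusted p = 0.736) and 0.08 labelled SK-N-AS (-0.06 to 0.22, adjusted p = 0.879). The interval for the mean of both labels, -0.09 to 0.10, is the narrowest among the 4 receptors.

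THRB, the gene of thyroid hormone receptor beta, was measured well under a single label. THRB was at 5.86, 5.61 and 7.34 CPM with ML210 labelled SK-N-BE(2), against 5.92, 6.62 and 6.39 CPM in controls, and these groups overlapped. The log2 difference there was -0.01 (95% interval -0.74 to 0.72, edgeR adjusted p = 1). In libraries labelled SK-N-AS it was near the floor, with 6, 31 and 28 reads with ML210, against 8, 26 and 9 reads in controls. That is 0.118, 0.455 and 0.446 CPM with ML210, against 0.104, 0.416 and 0.142 CPM in controls, and the log2 difference of 0.69 had an interval of -0.39 to 1.77 (adjusted p = 0.848). The 3 libraries with most THRB are among the 4 with the larger traces of genes of the other label. In them THRB was 7.23% and 7.09% (ML210 libraries 2 and 3) and 6.62% (control library 2) of its mean level labelled SK-N-BE(2). The median traces there were 1.19%, 1.77% and 1.69%. The genes behind these medians were chosen to be at most 3%, so a gene above 3% exceeds them by that choice. They cannot show whether THRB is above what such traces would give. Control library 3 had THRB at 2.26% with a median trace of 1.48%. The part of these traces in THRB was not tested.

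RORA, the gene of the ROR-alpha receptor, was at 9.92, 9.22 and 11.1 CPM with ML210 labelled SK-N-BE(2), against 10.3, 9.59 and 8.75 CPM in controls. It was at 3.78, 5.06 and 5.16 CPM in the ML210 libraries labelled SK-N-AS, against 4.40, 5.09 and 5.21 CPM in controls. The groups of a label overlapped. The log2 difference was 0.08 labelled SK-N-BE(2) (95% interval -0.22 to 0.39, edgeR adjusted p = 0.892) and -0.07 labelled SK-N-AS (-0.38 to 0.24, adjusted p = 0.977).

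**Figure D2:**
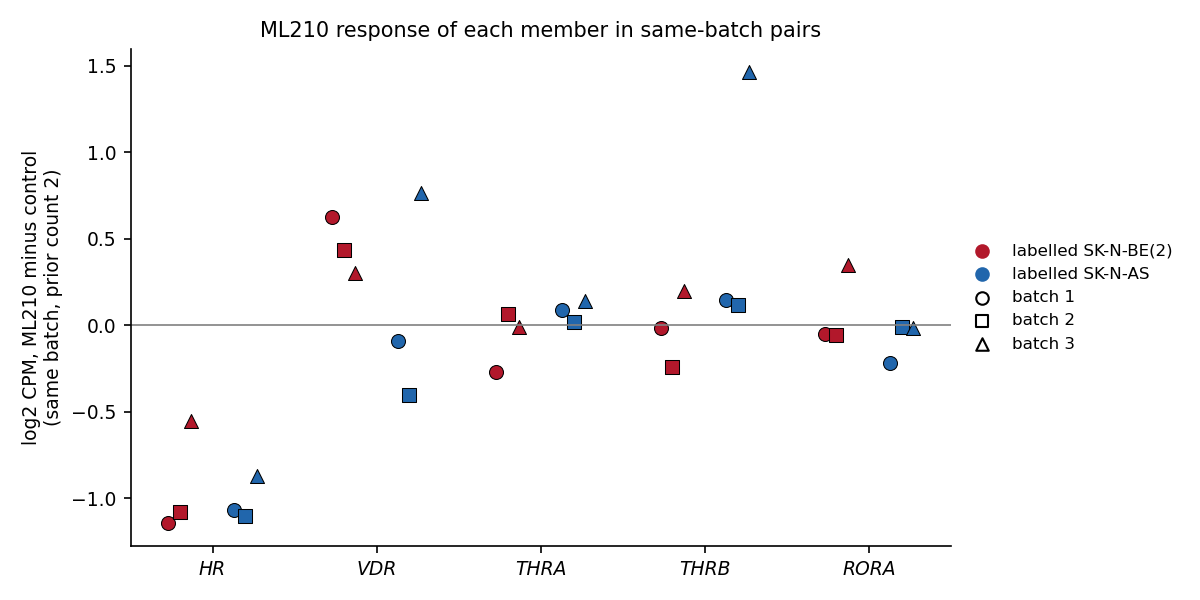
Log2 CPM of ML210 minus control in each same-batch pair, for HR and each receptor, coloured by line label and shaped by batch; the line marks no difference. The 6 HR pairs lie below 0, while the pairs of VDR labelled SK-N-AS and those of THRA and THRB labelled SK-N-BE(2) fall on both sides of it; the high THRB point labelled SK-N-AS rests on 28 reads with ML210 and 9 in the control.

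The controls of the labels differed in 4 of the 5 members, a contrast that did not choose them. HR and THRA were lower and THRB and RORA higher in controls labelled SK-N-BE(2) than in controls labelled SK-N-AS. Of all tested genes 69.2% were called in this comparison, so 4 of 5 is near the usual share and marks no property of these genes. All 5 members passed the filter on low counts under either label, at a level of 0.152 CPM in at least 3 libraries. For THRB labelled SK-N-AS these were just ML210 libraries 2 and 3 and control library 2, among those with the larger traces. Control libraries 1 and 3 of that label were below the level, at 0.104 and 0.142 CPM. Between controls THRB thus met the level mainly through the side labelled SK-N-BE(2), where it is high.

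HR differed by -1.75 on the log2 scale (SE 0.143, fold 0.298, edgeR adjusted p = 8.5e-08) between controls labelled SK-N-BE(2) and controls labelled SK-N-AS. The 3 controls of each label did not overlap, and the alternatives kept the difference between -1.87 and -1.5. THRB differed by 4.86 (SE 0.439, fold 29, edgeR adjusted p = 4.3e-07), the largest of the members. With batch 1 alone on the side labelled SK-N-AS, the THRB difference was 5.89 (adjusted p = 5.53e-07). The lower side of this fold rests on 8, 26 and 9 reads.

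RORA was higher by 0.96 (SE 0.143, fold 1.95, edgeR adjusted p = 3.7e-05) in controls labelled SK-N-BE(2), with no overlap of the controls. VDR averaged 3.48 ± 0.808 CPM in controls labelled SK-N-BE(2) and 2.64 ± 0.943 CPM in controls labelled SK-N-AS (SD, n = 3 each), and the difference of 0.39 did not pass (95% interval -0.25 to 1.03, adjusted p = 0.252). THRA averaged 122.1 ± 3.99 CPM in controls labelled SK-N-BE(2) and 141 ± 6.76 CPM in controls labelled SK-N-AS, a log2 difference of -0.21 (SE 0.0649, edgeR adjusted p = 0.0112). That call did not hold when control library 2 or 3 labelled SK-N-BE(2) or control library 2 labelled SK-N-AS was left out (adjusted p = 0.0863, 0.068 and 0.0527). Scaling by library totals in place of TMM moved the median of all genes to 0.24 and the THRA difference to 0.04 (adjusted p = 0.592), so the direction of THRA depends on the scaling.

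Per kb of exon, THRA stood above the other members in each group. THRA had 16.7 ± 1.53 and 17.5 ± 0.573 CPM per kb with ML210 and in controls labelled SK-N-BE(2), and 21.4 ± 0.234 and 20.3 ± 0.971 with ML210 and in controls labelled SK-N-AS (SD, n = 3 each). HR came next in 3 of the groups, at 1.35 ± 0.273 in controls labelled SK-N-BE(2), 2.26 ± 0.302 with ML210 labelled SK-N-AS and 4.55 ± 0.459 in controls labelled SK-N-AS. With ML210 labelled SK-N-BE(2), HR had 0.703 ± 0.045 and VDR 0.859 ± 0.289, which lie within the SD of VDR. RORA and THRB followed there at 0.592 ± 0.0571 and 0.572 ± 0.0855, also within their spread. In controls labelled SK-N-BE(2), VDR, THRB and RORA had 0.612 ± 0.142, 0.576 ± 0.0324 and 0.559 ± 0.0443 and could not be ordered beyond their SD. With ML210 labelled SK-N-AS the order below HR was VDR, RORA and THRB, at 0.471 ± 0.0286, 0.274 ± 0.0453 and 0.031 ± 0.0175. In controls of that label they had 0.465 ± 0.166, 0.288 ± 0.0259 and 0.0201 ± 0.0155. There THRB was lowest, and VDR and RORA could not be ordered beyond their SD.

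Each receptor was also set against HR, both per kb. THRA was 23.9 ± 3.33 times HR with ML210 and 13.3 ± 2.81 times HR in controls labelled SK-N-BE(2), and 9.61 ± 1.25 times HR with ML210 and 4.47 ± 0.38 times HR in controls labelled SK-N-AS. VDR was 1.23 ± 0.407 times HR with ML210 and 0.45 ± 0.0202 times HR in controls labelled SK-N-BE(2), and 0.212 ± 0.0402 and 0.103 ± 0.0381 times HR with ML210 and in controls labelled SK-N-AS (SD, n = 3 each). These ratios carry the HR difference that chose the gene and add no test.

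**Figure D3:**
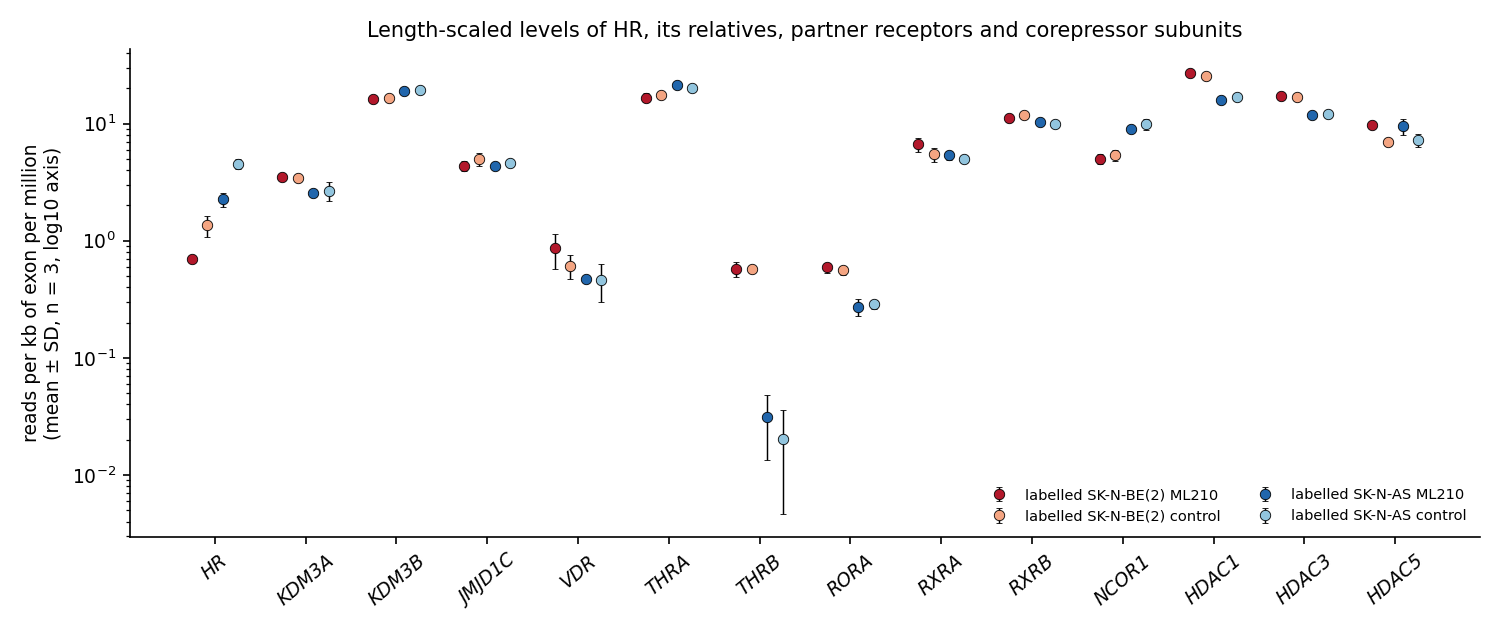
CPM per kb of exon (mean ± SD, n = 3, log10 axis) of HR, its JmjC relatives, the partner receptors, the retinoid X receptors and corepressor subunits in the 4 groups. THRA sits at 16.7 to 21.4 in all groups, HR between 0.703 and 4.55, and THRB labelled SK-N-AS at 0.031 and 0.0201, with error bars that reach down towards the floor.

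The JmjC relatives of HR, histone demethylases of the KDM3 family, did not pass the test with ML210. KDM3A was at 46.6 ± 0.175 CPM with ML210 and 46.0 ± 1.14 CPM in controls labelled SK-N-BE(2), and at 34.3 ± 1.32 and 36.0 ± 6.83 CPM with ML210 and in controls labelled SK-N-AS (SD, n = 3 each). KDM3B and JMJD1C had log2 differences of -0.02 and -0.19 labelled SK-N-BE(2), and -0.05 and -0.08 labelled SK-N-AS. Between controls KDM3B was lower by -0.25 and KDM3A higher by 0.36 labelled SK-N-BE(2) (edgeR adjusted p = 0.000668 and 0.00823). With library totals KDM3B was at -0.01 (adjusted p = 0.94), so its difference too depends on the scaling.

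The retinoid X receptors, with which VDR and the thyroid hormone receptors pair, did not pass with ML210. RXRA was at 73.6 ± 10.7 CPM with ML210 and 60.7 ± 8.14 CPM in controls labelled SK-N-BE(2), a log2 difference of 0.28 (95% interval from 0.02, edgeR adjusted p = 0.323). A further fit had a replicate block, in which same-batch libraries are paired. There RXRA was called at 0.28 labelled SK-N-BE(2) (edgeR adjusted p = 0.041) and at 0.20 for the mean of both labels (adjusted p = 0.0418). The block called 6.83% and 6.11% of all genes in these comparisons, beside 1.37% and 1.23% without it. RXRB had log2 differences of -0.09 labelled SK-N-BE(2) and 0.06 labelled SK-N-AS (adjusted p = 0.675 and 0.934). RXRG had 4 and 2 reads in a control library of each label and 0 in the other 10.

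Of 13 corepressors and deacetylases of their complexes, HDAC5, a class IIa histone deacetylase, rose for the mean of both labels, by 0.43 (SE 0.0828, edgeR adjusted p = 0.0273). That is 1 of 13 called higher, beside 0.699% of all genes, in a list chosen with earlier results of these data known. HDAC5 was at 73.2, 71.8 and 79.4 CPM with ML210 labelled SK-N-BE(2), against 52.6, 49.4 and 58.2 CPM in controls. It was at 85.5, 62.7 and 68.7 CPM in the ML210 libraries labelled SK-N-AS, against 60.2, 58.8 and 47.1 CPM in controls. The ML210 libraries stood above the controls of their label, yet neither label passed in the shared fit (adjusted p = 0.064 labelled SK-N-BE(2) and 0.533 labelled SK-N-AS). With a replicate block, by DESeq2 and with those groups fitted alone, HDAC5 was called labelled SK-N-BE(2) (adjusted p = 0.00359, 0.0094 and 0.0496). The call for the mean failed without any of 8 of the 12 libraries, with adjusted p of 0.0501 to 0.0839. With batch 1 alone on the side labelled SK-N-AS the value was 0.49 (adjusted p = 0.154).

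The nuclear corepressor NCOR1, which holds HDAC3 at unliganded receptors, was not called with ML210. For the mean of both labels NCOR1 had a log2 difference of -0.12 and HDAC3 one of -0.01 (edgeR adjusted p = 0.448 and 0.972). Between controls 4 of 13 were higher and 6 lower labelled SK-N-BE(2), 76.9% beside 69.2% of all genes, with a median of -0.17 on the log2 scale against -0.01 over all genes. SIN3A, a scaffold of deacetylase complexes, and the deacetylase HDAC1 were higher by 1.13 and 0.60, and the deacetylases HDAC2 and HDAC4 lower by values of -1.45 and -0.91 (adjusted p = 5.19e-09, 5.18e-07, 6.21e-12 and 1.79e-08). With library totals the count was 5 higher and 3 lower.

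None of 9 coactivators passed with ML210 in any of the 4 comparisons that use it, with the replicate block included. Between controls 1 was higher and 6 lower labelled SK-N-BE(2), 77.8% of 9 beside 69.2% of all genes, and with library totals 3 and 3. PPARGC1A, a coactivator of mitochondrial genes, was at 0.529 ± 0.223 CPM in controls labelled SK-N-BE(2) and 24.0 ± 1.90 CPM in controls labelled SK-N-AS (SD, n = 3 each), a log2 difference of -5.48 (edgeR adjusted p = 1.12e-07). The acetyltransferase EP300 and the steroid receptor coactivators NCOA3 and NCOA2 differed by -1.13, -0.44 and -0.39 (adjusted p = 1.96e-06, 0.000207 and 0.000908), and NCOA2 only under the TMM scaling (adjusted p = 0.163 with library totals).

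Of 10 genes that supply thyroid hormone to its receptors 7 were tested, and 1 was called with ML210, lower and labelled SK-N-BE(2). There 1.37% of all genes were called and 0.557% were called lower. Between controls 3 were higher and 3 lower, 85.7% of 7 beside 69.2% of all genes, and 3 of the 7 (DIO2, DIO3 and CRYM) reached the filter level through libraries labelled SK-N-BE(2) alone. CRYM encodes mu-crystallin, which binds the hormone in the cytosol. CRYM was at 1.37, 1.08 and 1.68 CPM with ML210 labelled SK-N-BE(2), against 3.21, 4.10 and 5.29 CPM in controls, without overlap. It fell by 1.61 on the log2 scale (edgeR adjusted p = 0.022), and same-batch pairs were at 42.5%, 26.3% and 31.8% of control. The call was lost without ML210 library 1 or 2 or control library 2 or 3 of that label (adjusted p of 0.0607 to 0.107), and with batch 1 alone on the side labelled SK-N-AS (adjusted p = 0.056), while the value stayed between -1.80 and -1.44. In libraries labelled SK-N-AS CRYM had 0, 1 and 2 reads with ML210, against 0, 1 and 0 in controls, under the floor. The hormone transporters SLC7A5 and SLC16A10 were lower by values of -3.87 and -1.5 in controls labelled SK-N-BE(2) (adjusted p = 6.96e-08 and 8.46e-06). SLC7A5, which also carries large neutral amino acids, had a log2 difference of 0.71 with ML210 labelled SK-N-BE(2) under a replicate block (edgeR adjusted p = 0.0213). That fit called 6.83% of all genes there.

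Of 18 genes described as thyroid hormone responsive, 10 were tested and the genes called with ML210 were CPT1A and ME1. CPT1A, the carnitine palmitoyltransferase that admits fatty acids to mitochondria, was at 86.2, 93.6 and 89.9 CPM with ML210 labelled SK-N-BE(2), against 69.2, 69.6 and 67.7 CPM in controls. It was at 57.7, 60.9 and 61.1 CPM in the ML210 libraries labelled SK-N-AS, against 35.7, 37.5 and 29.9 CPM in controls. CPT1A rose by 0.39 labelled SK-N-BE(2) and by 0.80 labelled SK-N-AS (edgeR adjusted p = 0.024 and 0.000711), and without overlap under either label. The call labelled SK-N-BE(2) was lost without any of 5 libraries of that label (adjusted p of 0.0625 to 0.14) and with batch 1 alone on the side labelled SK-N-AS (adjusted p = 0.0593). That labelled SK-N-AS was lost with its batch 1 alone, at 0.69 (adjusted p = 0.349).

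ME1, the cytosolic malic enzyme that yields NADPH, rose by 0.97 labelled SK-N-BE(2) (edgeR adjusted p = 0.00814), with 132.3, 115.7 and 84.4 CPM with ML210, against 59.2, 55.5 and 54.9 CPM in controls. Labelled SK-N-AS it had 0.39 (adjusted p = 0.567), with 75.2, 86.4 and 79.5 CPM with ML210, against 62.7, 58.5 and 62.8 CPM in controls, and the responses differed by 0.58 (adjusted p = 0.516). The call labelled SK-N-BE(2) did not pass when those groups were fitted alone (adjusted p = 0.0574), nor with batch 1 alone on the side labelled SK-N-AS (adjusted p = 0.066). The list had 2 of 10 called higher labelled SK-N-BE(2), beside 0.818% of all genes, and 1 of 10 labelled SK-N-AS, beside 0.0246%. It was chosen with earlier results of these data known, so these counts are no test of thyroid hormone responsive genes. Its median log2 difference was 0.01 and 0.03, beside 0.00 and -0.01 over all genes.

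KLF9, which with HR is a known thyroid hormone responsive gene of rodent brain, is given here after its values were seen. It was at 7.32, 9.17 and 10.9 CPM with ML210 labelled SK-N-BE(2), against 14.3, 14.6 and 17.7 CPM in controls, without overlap. It was at 8.74, 13.7 and 12.9 CPM in the ML210 libraries labelled SK-N-AS, against 12.3, 15.9 and 17.7 CPM in controls, which overlap. Each same-batch pair was lower with ML210, at 51.3%, 63.0% and 61.5% of control labelled SK-N-BE(2) and 71.2%, 86.1% and 72.6% labelled SK-N-AS. The log2 difference for the mean of both labels was -0.57 (edgeR adjusted p = 0.0664). With a replicate block KLF9 was called at -0.58 (adjusted p = 0.000636), and so it was by DESeq2 at -0.57 (adjusted p = 0.00193). For the mean those fits called 6.11% and 5.04% of all genes, beside 1.23% in the unblocked edgeR fit.

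Of 21 genes described as VDR targets, 11 were tested and none passed with ML210. At an unadjusted p under 0.05 there were 3 labelled SK-N-BE(2) and 1 labelled SK-N-AS. Of all 20304 tested genes, 2732 and 1398 had such a p under these labels. CYP24A1, the enzyme that breaks down active vitamin D and the most responsive target of VDR, had 0 reads in all 12 libraries, below the floor of 3 reads. SPP1, which encodes osteopontin, was at 6.27, 2.15 and 0.212 CPM with ML210 labelled SK-N-BE(2), against 0.114, 0.0552 and 0.0837 CPM in controls. SPP1 reached the filter level through those ML210 libraries alone, so its difference is given as levels. With a replicate block 4 of 11 were called there, CDKN1A, IGFBP3 and IGFBP5 besides SPP1, where 6.83% of all genes were. SPP1 was tested only through the libraries where it is high, so its call adds nothing to this count. The other 3 did not move together. Same-batch pairs were above control for CDKN1A and IGFBP3 and below it for IGFBP5, at 73.4%, 82.6% and 89.2% of control. Between controls G0S2 and FBP1 were higher by 2.19 and 1.73 and CD14 lower by a value of -2.17 (edgeR adjusted p = 7.29e-05, 0.00147 and 0.000336). TRPV6 rested on 35 and 4 reads over the controls labelled SK-N-BE(2) and SK-N-AS, and CDKN1A at -0.68 (adjusted p = 0.0376) was lost with library totals (adjusted p = 0.156). CYP27B1, which makes active vitamin D, averaged 2.50 ± 0.348 CPM in controls labelled SK-N-BE(2) and 0.509 ± 0.0385 CPM in controls labelled SK-N-AS (SD, n = 3 each), a difference of 2.29 (adjusted p = 1.38e-06).

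Receptors that share DNA elements with RORA differed between labels in the same direction as RORA. RORB was at 43.7 CPM on average in controls labelled SK-N-BE(2) and 0.644 CPM in controls labelled SK-N-AS, a log2 difference of 6.11 (edgeR adjusted p = 2.87e-06). The REV-ERB repressors NR1D2 and NR1D1 were higher by 1.27 and 0.58 (adjusted p = 1.23e-08 and 0.00174), and NR1D1 did not pass with batch 1 alone on the side labelled SK-N-AS (adjusted p = 0.0881). Of all genes 33.9% were called higher in this comparison. None of RORB, NR1D1 and NR1D2 was called with ML210 in the unblocked fit. NR1D2 was called with a replicate block labelled SK-N-AS, at 0.36 (adjusted p = 0.0288), and its responses differed between labels by -0.44 in that fit (adjusted p = 0.0391).

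Clock genes of the loop that RORA drives showed no call with ML210 among 15 tested. With a replicate block BMAL1, the direct target of RORA, was called labelled SK-N-BE(2) at 0.40 (edgeR adjusted p = 0.0316), against 0.39 unblocked (adjusted p = 0.169). Under the same block PER2, a period repressor, and DBP, a clock output factor, were called for the mean of both labels. Their values were -0.25 and -0.42 (edgeR adjusted p = 0.0398 and 0.0117). Unblocked, at -0.25 and -0.41, they were not called (adjusted p = 0.128 and 0.0705). The block called 6.83% of all genes labelled SK-N-BE(2) and 6.11% for the mean. BMAL1 averaged 25.4 ± 0.941 and 19.3 ± 1.77 CPM with ML210 and in controls labelled SK-N-BE(2), and 3.40 ± 0.715 and 3.63 ± 0.285 CPM with ML210 and in controls labelled SK-N-AS (SD, n = 3 each). Between controls BMAL1, PER3 and NFIL3 were higher by 2.41, 2.72 and 2.29, and PER2 lower by a value of -1.72 (adjusted p = 2.39e-09, 2.7e-09, 9.99e-09 and 4.88e-09). In all 6 were higher and 7 lower of 15, 86.7% beside 69.2% of all genes.

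Among the other 44 nuclear receptors 34 were tested, and 0 were called with ML210 in each of the 4 comparisons by edgeR. At an unadjusted p under 0.05 there were 10 of 34 labelled SK-N-BE(2), 4 labelled SK-N-AS, 10 for the mean and 6 for the difference. Over all 20304 tested genes these counts were 2732, 1398, 2854 and 1454 in the same order. With a replicate block 7 were called labelled SK-N-BE(2) and 1 labelled SK-N-AS, and DESeq2 called 4 and 0. The block called 6.83% and 0.187% of all genes under these labels, and DESeq2 4.61% and 0.296%. RARB, a retinoic acid receptor, and ESRRG, an orphan receptor of energy metabolism, had blocked values of -1.34 and -0.56 labelled SK-N-BE(2) (adjusted p = 0.00926 and 0.000639). Between controls 20 were higher, 9 lower and 5 not called, 85.3% of 34 beside 69.2% of all genes, and 3 of the 34 reached the filter level in libraries of a single label. PPARG, NR3C1 and NR2F1 were higher by 5.05, 3.66 and 2.36, and NR2F2 lower by a value of -5.38 (adjusted p = 7.49e-11, 1.03e-10, 1.64e-10 and 1.54e-10). The THRB difference of 4.86 is the fourth highest in value of the 38 receptors tested.

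**Figure D4:**
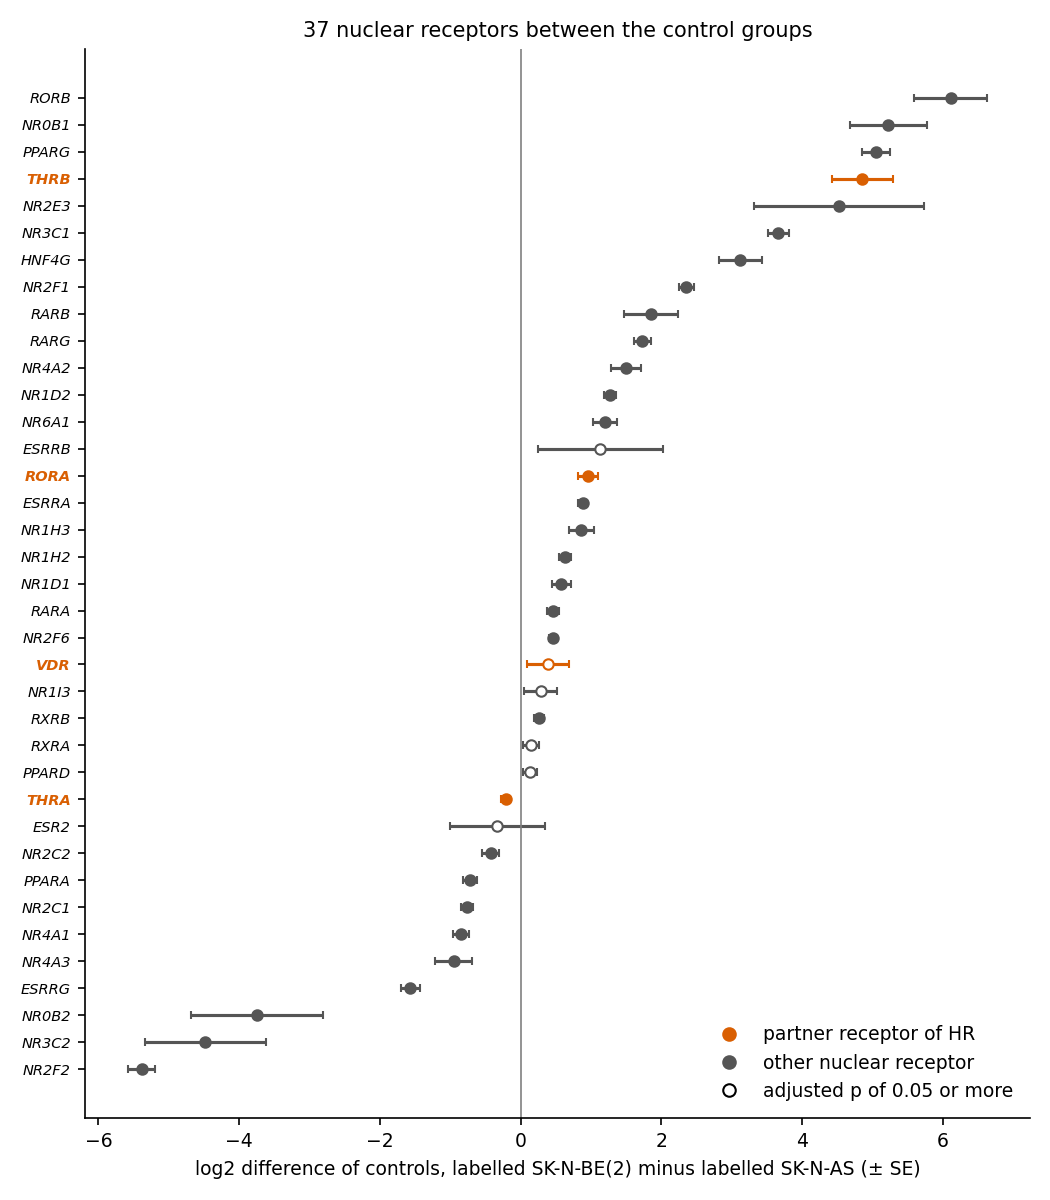
Fitted log2 difference of controls, those labelled SK-N-BE(2) less those labelled SK-N-AS, with SE, for 37 of the 38 tested nuclear receptors in order of value; the 4 partner receptors of HR are coloured, and open points did not pass an adjusted p of 0.05. THRB lies at 4.86 near the top, RORA at 0.96, VDR at 0.39 (open) and THRA at -0.21; values of receptors near 0 reads under a label, such as NR2E3 and NR3C2, depend on the prior count.

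HR is described in mice as a repressor of the Wnt inhibitors SOSTDC1 and DKKL1. SOSTDC1 was at 1.97, 3.23 and 4.18 CPM with ML210 labelled SK-N-BE(2), against 4.22, 4.15 and 5.16 CPM in controls, and at 5.73, 3.64 and 5.05 CPM in the ML210 libraries labelled SK-N-AS, against 4.67, 4.09 and 4.65 CPM in controls. The groups overlap under both labels and neither passed. DKKL1 had 14, 10 and 2 reads with ML210 labelled SK-N-BE(2), against 7, 19 and 18 reads in controls. It had 0, 0 and 2 reads with ML210, against 0, 2 and 0 reads in controls labelled SK-N-AS, which gives no fold against them.

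The genes whose log2 CPM was most like that of each member were ranked over the 12 libraries, which span both labels and both treatments. The measure was Pearson's r among 10399 or 10400 protein-coding genes, given as a ranking without a test. For HR they were UBR7, OXCT1 and PHF19 (r = 0.975, 0.974 and 0.972), for VDR LSG1, CKAP4 and P2RX4 (0.914, 0.892 and 0.89), and for THRA ZNF629, EEF2K and BRD3 (0.98, 0.962 and 0.961). For THRB they were PGPEP1, TMEM200B and RORB (0.995, 0.993 and 0.993), and for RORA S100A10, CNTNAP2 and FBXL7 (0.991, 0.989 and 0.988). After subtraction of each label's mean, HR was most like OSBPL9, PPP4R1 and BUB1 (0.964, 0.948 and 0.942) and most opposite to BLOC1S3, SLC19A1 and TRIM16L (-0.944, -0.936 and -0.935). That subtraction leaves in place the ML210 difference by which HR was chosen. These r values therefore carry that difference and show no tie of these genes to HR. TRIM16L, which shares sequence with TRIM16 and is uncertain for that reason, averaged 30.7 and 13.5 CPM with ML210 and in controls labelled SK-N-BE(2), and 13.5 and 6.12 CPM with ML210 and in controls labelled SK-N-AS.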

How the data were processed

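Poly(A)-selected, stranded mRNA libraries were sequenced, per the labels' protocols. The authors deposited whole-number counts per gene that were not normalized. The submitters' processing notes list HISAT2 2.2.1, featureCounts 2.0.5, Trimmomatic 1.4 and FastQC, and name GRCh38 (hg38). How strand and multi-mapping reads were handled, and the gene annotation, were not given in the sources. Of 61552 genes, 61399 had a symbol in the reference of gene names, and all 5 members were matched.

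From these deposited counts, edgeR 4.0.16 (R 4.3.3) kept 20304 genes by filterByExpr on the groups and scaled libraries by TMM. The 12 libraries were fitted jointly, with 1 term for each group, 8 residual degrees of freedom and a common dispersion of 0.0223. The robust quasi-likelihood test was two-sided, p-values were adjusted by Benjamini-Hochberg across the 20304 genes, and a call needed an adjusted p under 0.05. Compared were ML210 with control in each label, the mean and the difference of these responses, and controls labelled SK-N-BE(2) minus controls labelled SK-N-AS. CPM used TMM-scaled totals, and log2 CPM a prior count of 2. Length scaling used the union of exons in GENCODE release 29. The fit was tested on simulated data.

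The alternatives were library totals in place of TMM, DESeq2 1.42.0, limma 3.58.1 voom, no filter, a stricter filter (1 CPM in 3 libraries), the groups of a comparison alone, a replicate block and each library left out. The fit without batches 2 and 3 labelled SK-N-AS was chosen after seeing the data. Because the labels give a batch equal to the replicate number, same-numbered libraries of a label were treated as paired in the block. Deviations from group means correlated at 0.068 to 0.357 for same-batch ML210 and control libraries of a label and at -0.269 to 0.189 for other batches.

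The members and the 19 lists, with 195 genes, were chosen with earlier results of these data known. Named were the members, of each list the called genes (all if 5 or fewer, otherwise the 4 with the smallest adjusted p) and any described member of the lists of corepressors, coactivators, retinoid X, ROR and KDM3 genes, and per member the 3 genes with the highest r. Genes named outside this rule were chosen after their values were seen; these are KLF9, SPP1, CYP24A1, SOSTDC1, the genes called under the block, and MYCN. The lists of Schwann, endothelial, blood and epithelial markers are summarised in the closing section. Some results that the rule would name are not reported here.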

Additional observations from a re-analysis of the deposited data

How the results depend on the processing

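HR stayed lower with ML210 in every alternative run, but these used the same counts that chose HR and add no support. THRB, RORA and HR kept their calls between controls in all of the runs. The number of genes called with ML210 depended on the model. Labelled SK-N-AS, 6 genes became 52 with DESeq2, 33 with no filter, 21 with the groups alone, 38 with a replicate block and 0 with batch 1 of that label alone. Labelled SK-N-BE(2), 279 became 790, 556, 51, 1386 and 27 in the same order. For the mean of both labels 250 became 825 with DESeq2, 531 with no filter, 1240 with the block and 8 with batch 1 alone, and for the difference of the responses 1 became 45, 24, 85 and 0. The replicate block called no receptor member with ML210 and changed no other member's call. Near 0, VDR labelled SK-N-AS turned to -0.10, RORA for the mean to -0.071 and HDAC5 for the difference to -0.016 with batch 1 alone, and THRA for the mean to 0.00 without a filter. Between controls THRA turned to 0.04 with library totals and had -0.19 with batch 1 alone. With library totals 60.7% of the control calls were higher, against 49.1% with TMM.

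Leaving out each library gave 3 to 13 genes labelled SK-N-AS, 48 to 1242 labelled SK-N-BE(2), 63 to 1006 for the mean and 1 to 156 for the difference. The highest counts came without ML210 library 3 labelled SK-N-BE(2), and the lowest labelled SK-N-BE(2) without ML210 library 2 of that label. The log2 ranges were -0.25 to 0.21 for VDR and -0.144 to 0.061 for RORA labelled SK-N-AS, -0.16 to 0.049 for THRB and -0.016 to 0.129 for RORA labelled SK-N-BE(2), -0.018 to 0.043 for THRA and -0.035 to 0.072 for RORA for the mean, -0.12 to 0.19 for the HR difference, and -0.24 to -0.16 for THRA between controls. With a single library left in a group, its spread was taken from the other groups. Depth limits THRB and CRYM labelled SK-N-AS, which rest on 6 to 31 and 0 to 2 reads per library. The causes were not tested.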

Other observations

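Markers of other cell types did not all stay near 0. The 8 endothelial markers summed to 2.08 to 3.12 CPM with ML210 and 2.67 to 3.53 CPM in controls labelled SK-N-BE(2), and to 73.9 to 120.5 CPM with ML210 and 77.2 to 124.8 CPM in controls labelled SK-N-AS. EGFL7, at 56.3 to 81.9 CPM, made up most of the sum labelled SK-N-AS. Between controls 6 of the 8 were called lower labelled SK-N-BE(2) and 1, CLDN5, higher, 87.5% called beside 69.2% of all genes. The 8 blood markers summed to 163.1 to 289.2 CPM with ML210 and 263.8 to 329.7 CPM in controls labelled SK-N-BE(2), and to 1.65 to 3.16 CPM with ML210 and 1.53 to 3.52 CPM in controls labelled SK-N-AS. Of these 8 genes, 4 had no read labelled SK-N-BE(2), and each group labelled SK-N-AS had 3 without a read. Labelled SK-N-BE(2), PTPRC alone exceeded 1 CPM on average and made up nearly all of the sum. It was at 162.1 to 288.8 CPM with ML210 and 263.2 to 328.9 CPM in controls. CD14 went the other way, lower by a value of -2.17 in controls labelled SK-N-BE(2), so the sum does not describe blood markers as a set. The 8 epithelial markers summed to 182.8 to 236.9 CPM with ML210 and 204.4 to 273 CPM in controls labelled SK-N-BE(2). Labelled SK-N-AS they summed to 33.6 to 40.6 CPM with ML210 and 33.3 to 40.5 CPM in controls. In each group 3 of the 8 exceeded 1 CPM on average, the keratins KRT8, KRT18 and KRT10, and the other 5, EPCAM and CDH1 among them, did not. The 8 Schwann cell markers stayed at 2.61 to 16.3 CPM in sum in all libraries. Of the 12 sympathoadrenal markers, 1 was called lower with ML210 labelled SK-N-BE(2), beside 0.557% of all genes, and 11 did not pass. Their log2 differences there ran from -1.56 to 0.16, so 1 call does not describe the list. The called gene was PHOX2A, a transcription factor of sympathetic neurons, which fell by 0.69 on the log2 scale. PHOX2A was not called when those groups were fitted alone, at -0.70 (edgeR adjusted p = 0.11). The call was also lost without ML210 library 2 or control library 2 or 3 of that label (adjusted p = 0.0519, 0.0586 and 0.0604), and with batch 1 alone on the side labelled SK-N-AS (adjusted p = 0.127).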
